A study of Mus musculus with 6 samples.

Results

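Genes of the mouse heart that encode inward rectifier potassium channels and their regulatory subunits were followed through a comparison of hearts lacking NBCe1-B and NBCe1-C with wild-type hearts. The 8 genes were chosen by name, and all 8 were found among the 16018 genes of the expression table: the Kir2 pore subunits Kcnj2 and Kcnj12, the Kir3 pore subunits Kcnj3 and Kcnj5, the KATP pore subunits Kcnj8 and Kcnj11, and the sulfonylurea receptors Abcc8 and Abcc9. All 8 passed the filter on low values. Total RNA of whole hearts was sequenced in 3 NBCe1-B/C KO and 3 wild-type (WT) animals, all female and 4 to 5 weeks old. NBCe1, encoded by Slc4a4, is an electrogenic sodium bicarbonate cotransporter, and its NBCe1-B and NBCe1-C variants are made from a different promoter than NBCe1-A. The knockout, written KOb/c here, is carried in the germline in every cell of the body, was bred from heterozygous parents on a C57BL/6J background and leaves NBCe1-A in place, so it is not restricted to cardiac myocytes.

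Inward rectifiers pass potassium more readily into the cell than out of it, because polyamines and magnesium block the pore from the inside at positive voltages. In the heart, Kir2 channels carry IK1, which sets the resting potential of ventricular myocytes and ends repolarization. Kir3 heteromers carry IKACh, which opens when the M2 muscarinic receptor releases G protein beta-gamma subunits and is strongest in atria and nodal cells. KATP channels join a ring of Kir6 pore subunits to an outer ring of sulfonylurea receptors, close with ATP and open with magnesium ADP, and so tie excitability to metabolism.

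The coding sequence of the pore sets the Kir6 genes apart from the Kir2 and Kir3 genes. The stretch below is read 5′ to 3′ on the coding strand of the mouse genome (GRCm38, GENCODE M21 gene models), with the 5 codons of the potassium selectivity filter in capitals and the flanking codons in lower case. The last 3 filter codons read glycine, tyrosine and glycine in Kcnj2, in Kcnj12 (window not shown) and in both Kir3 genes. They read glycine, phenylalanine and glycine in both Kir6 genes.
Kcnj2: cagacaACCATTGGCTATGGTttcagg
Kcnj3: gaggccACCATCGGCTATGGCtaccgc
Kcnj5: gaaacaACCATTGGGTATGGCttcaga
Kcnj8: caagtgACCATTGGGTTTGGAgggaga
Kcnj11: caggtgACCATTGGTTTCGGCgggcgc
These windows lie at chr11:111072201-111072227 in Kcnj2, chr2:55437621-55437647 in Kcnj3, chr9:32322553-32322579 in Kcnj5, chr6:142566442-142566468 in Kcnj8 and chr7:46099490-46099516 in Kcnj11, all within coding exons. The sulfonylurea receptors carry no pore. They are ATP-binding cassette proteins, and the windows below hold their Walker A motifs, the loops that grip the phosphates of the bound nucleotide, again with the motif in capitals.
Abcc8 first nucleotide-binding domain: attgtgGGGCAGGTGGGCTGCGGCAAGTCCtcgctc
Abcc9 first nucleotide-binding domain: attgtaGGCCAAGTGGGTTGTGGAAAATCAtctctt
Abcc8 second nucleotide-binding domain: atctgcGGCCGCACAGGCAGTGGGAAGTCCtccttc
Abcc9 second nucleotide-binding domain: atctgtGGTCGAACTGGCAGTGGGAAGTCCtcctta
In Abcc8 they lie at chr7:46135537-46135572 and chr7:46107275-46107310, and in Abcc9 at chr6:142652583-142652618 and chr6:142601813-142601848. The paired proteins were 72.0% identical for Kcnj2 and Kcnj12, 58.3% for Kcnj3 and Kcnj5, 70.6% for Kcnj8 and Kcnj11, and 70.5% for Abcc8 and Abcc9. The longest identical run between the transcripts of any 2 members was 23 bases, between Abcc8 and Abcc9, against reads of 150 bases.

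The KATP genes sit in adjacent pairs on the minus strand. Kcnj8 (ENSMUSG00000030247, chr6:142564837-142571614) lies 16.2 kb from Abcc9 (ENSMUSG00000030249, chr6:142587862-142702315), and Kcnj11 (ENSMUSG00000096146, chr7:46093953-46100764) lies 3.8 kb from Abcc8 (ENSMUSG00000040136, chr7:46104523-46180033), with 0 protein-coding genes in either gap. Kcnj2 (ENSMUSG00000041695, chr11:111066164-111076821) and Kcnj12 (ENSMUSG00000042529, chr11:61022564-61071131) are on the plus strand of one chromosome but far apart. Kcnj3 (ENSMUSG00000026824, chr2:55435970-55598145, plus strand) and Kcnj5 (ENSMUSG00000032034, chr9:32314707-32344350, minus strand) are on separate chromosomes.

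Between 41364857 and 49100802 reads were assigned to genes per library, and the counting error of a member did not exceed 3.08% in any library, so the spread between animals sets the precision. Slc4a4, the targeted gene, went against 1 label. Its normalized read count was 264 in KOb/c replicate 1, 268.7 in KOb/c replicate 3 and 675.1, 822.2 and 788.8 in the WT libraries, whereas the library labelled KOb/c replicate 2 held 944.8, more than any WT library. The gene-level count includes NBCe1-A. The log2 fold change of Slc4a4 (KOb/c over WT) was -0.90 with all libraries (limma adjusted p = 0.239) and -1.51 without KOb/c replicate 2 (limma adjusted p = 0.0121). Each comparison below is therefore also given without that library where its value matters. The labels do not say whether libraries came from separate litters or preparations, and p-values measure only the spread between these samples.

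The question for each member was whether its transcript level differed between KOb/c and WT hearts. Kcnj2 and Abcc9, which encode Kir2.1 and SUR2, showed the largest differences, each close to 1.5-fold higher in KOb/c, and Kcnj12 was 1.17-fold higher. In all 3 genes every KOb/c library lay above every WT library, as it did for 15.6% of all genes tested, and for 0 of the 8 members did all lie below, against 14.6% of genes. By limma on log2 normalized counts, 0 of the 8 members passed an adjusted p of 0.05, as did 0% of the 16016 genes tested (3764 genes had an unadjusted p below 0.05). Before adjustment, 3 of the 8 members were below 0.05 in the higher direction, against 13% of genes, and 0 in the lower direction, against 10.5%. DESeq2 on the recovered reads called 2 of the 8 members higher, Kcnj2 and Abcc9, and 0 lower, where it called 8.22% and 5.03% of genes with an adjusted p, and edgeR's quasi-likelihood test called 0 members and 0 genes. The median log2 fold change was 0.20 over the members and -0.0043 over all genes tested, with 7 of the 8 members above 0. Without KOb/c replicate 2 the median over the members was 0.24, and limma again called 0 of the 8.

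**Figure D1:**
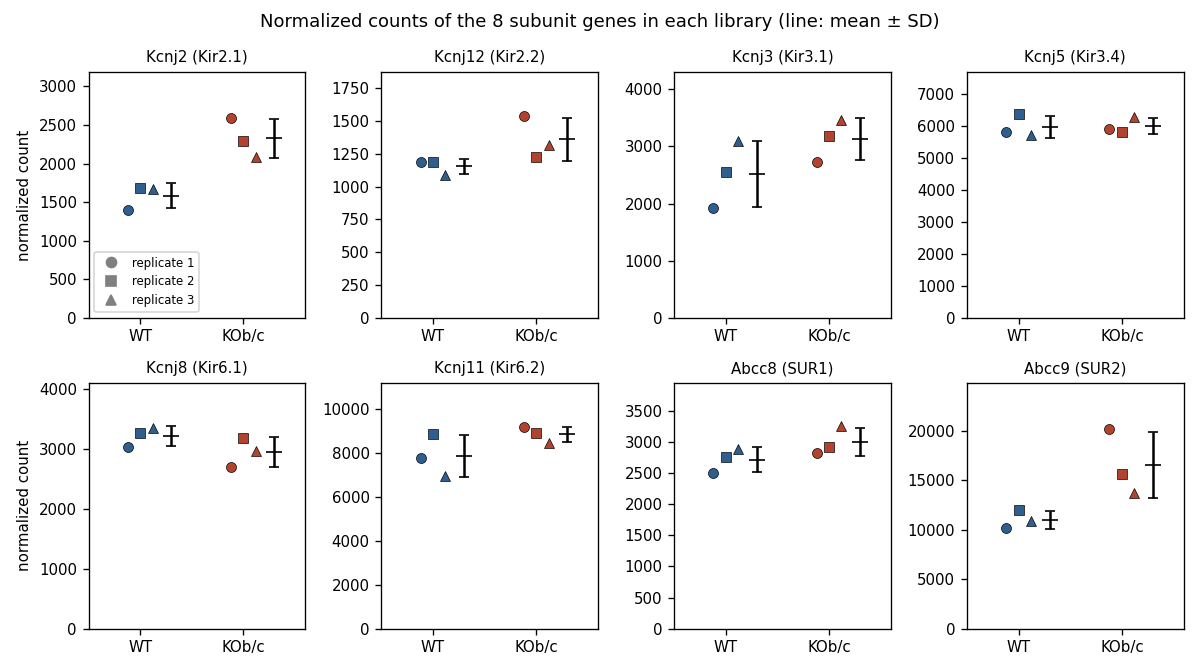
Normalized read counts of the 8 subunit genes in each library, 1 panel per gene with a y axis from 0, for WT and KOb/c hearts; marker shapes give the replicate number and bars the mean ± SD (n = 3 per group). The groups separate for Kcnj2, Kcnj12 and Abcc9 and overlap for the other 5 genes.

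The Kir2 pore subunits carry IK1. Kcnj2, the Kir2.1 gene, had normalized counts of 2592, 2298 and 2091 in KOb/c replicates 1, 2 and 3 and of 1393, 1678 and 1670 in the WT replicates. Even the lowest KOb/c library exceeded the highest WT library, and KOb/c replicate 2 fell between the other KOb/c libraries. The group means were 2327 ± 252 and 1580 ± 162 (SD, n = 3), a 1.47-fold difference with a 95% interval of 1.25 to 1.73. On the log2 scale Kcnj2 differed by 0.56 (SE 0.10, limma adjusted p = 0.0815), against an edgeR adjusted p of 0.0805 and a DESeq2 adjusted p of 0.000196. The exact two-sided permutation test gave p = 0.1, the smallest that 3 against 3 allows. With 1 library left out at a time, the log2 difference stayed between 0.47 and 0.63, and it was 0.56 without KOb/c replicate 2.

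Kcnj12 encodes Kir2.2, which can assemble with Kir2.1 in the same channel. Its normalized counts were 1536, 1222 and 1320 in KOb/c and 1186, 1187 and 1090 in WT. The groups did not overlap, but KOb/c replicate 2 lay only just above the highest WT library. Means of 1359 ± 161 and 1154 ± 55.9 gave a 1.17-fold difference (95% interval 1.01 to 1.36), or 0.23 in log2 units (SE 0.09, limma adjusted p = 0.189). KOb/c replicate 1 carried much of this, since the log2 difference was 0.14 without it and 0.30 without KOb/c replicate 2.

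Kir3 subunits form the acetylcholine-gated channel of atrial and nodal myocytes. Kcnj3, the Kir3.1 gene, had counts of 2729, 3186 and 3469 in KOb/c and 1924, 2547 and 3087 in WT. Replicate 1 was the lowest library of each group, and the groups overlapped. The means of 3128 ± 373 and 2519 ± 582 differed 1.26-fold, with a 95% interval of 0.977 to 1.62 (limma adjusted p = 0.25), and the log2 difference fell from 0.33 to 0.15 without WT replicate 1. An annotated antisense gene, Gm26794, overlaps Kcnj3 exons by 1621 bases and had a log2 difference of 0.57 (limma adjusted p = 0.0947). Whether the counting used strand is not given in the sources used here, so reads of the 2 genes may not be separable over that stretch.

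Kcnj5 encodes Kir3.4, the partner that brings Kir3.1 to the cell surface. Its counts were 5924, 5816 and 6286 in KOb/c and 5802, 6364 and 5731 in WT, with the groups fully interleaved. The means of 6009 ± 246 and 5966 ± 347 gave a ratio of 1.01, and the 95% interval on the log2 scale was -0.14 to 0.16 (limma adjusted p = 0.941).

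Kcnj8, the Kir6.1 gene, encodes the KATP pore of vascular smooth muscle and pericytes. Its counts of 2700, 3185 and 2973 in KOb/c overlapped those of 3033, 3269 and 3354 in WT. This was the only member with a fold change below 1, at 0.916 (95% interval 0.81 to 1.04, limma adjusted p = 0.362), and means of 2953 ± 243 and 3219 ± 166. Kcnj11 encodes Kir6.2, the pore of the sarcolemmal KATP channel of ventricular myocytes. It had counts of 9148, 8892 and 8442 in KOb/c and 7747, 8863 and 6935 in WT, so that 1 WT library reached the KOb/c range. The means of 8828 ± 358 and 7848 ± 968 differed 1.13-fold (95% interval 0.979 to 1.30, limma adjusted p = 0.278).

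Abcc8 encodes SUR1, the receptor best known from the pancreatic beta cell and also present in mouse atrium. Its counts were 2828, 2917 and 3257 in KOb/c and 2504, 2765 and 2898 in WT, overlapping, with means of 3001 ± 226 and 2722 ± 200. The ratio was 1.10 (95% interval 0.97 to 1.25, limma adjusted p = 0.329). Abcc9 encodes SUR2, whose splice forms SUR2A and SUR2B pair with Kir6 pores in cardiac and in vascular muscle, and which the gene-level counts do not separate. It had counts of 20163, 15671 and 13680 in KOb/c and 10179, 11958 and 10828 in WT. All KOb/c libraries lay above all WT libraries, with KOb/c replicate 1 the highest by a wide margin. The means of 16504 ± 3321 and 10988 ± 901 differed 1.49-fold (95% interval 1.21 to 1.83), or 0.57 in log2 units (SE 0.13, limma adjusted p = 0.0822, edgeR adjusted p = 0.0805, DESeq2 adjusted p = 0.000569). The exact permutation test gave p = 0.1. Abcc9 differed by 0.42 in log2 units without KOb/c replicate 1 and by 0.60 without KOb/c replicate 2. Its exons overlap, over 158 bases, an annotated gene on the other strand that was not among the tested genes.

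**Figure D2:**
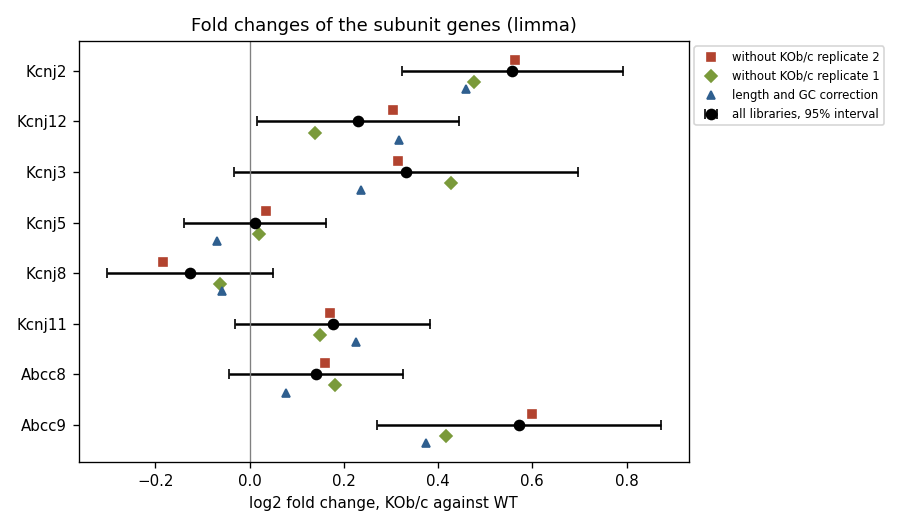
Log2 fold change of each subunit gene (KOb/c over WT, x axis) from limma, as black points with 95% intervals, beside the value without KOb/c replicate 2 (red squares), without KOb/c replicate 1 (green diamonds) and corrected for GC content and transcript length (blue triangles). The intervals of Kcnj2, Kcnj12 and Abcc9 lie above 0, and the corrected Abcc9 value of 0.37 is below its uncorrected value of 0.57.

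To see how far the values move with transcript length and GC content, both were corrected for by a spline fitted across all genes. This brought Kcnj2 from 0.56 to 0.46 (limma adjusted p = 0.244) and Abcc9 from 0.57 to 0.37 (limma adjusted p = 0.261), and Kcnj12 from 0.23 to 0.32. The signs held for these 3 genes, and the part of transcript length in their differences was not tested. Over all alternatives the adjusted p ranged from 0.000196 to 0.275 for Kcnj2 and from 0.000569 to 0.292 for Abcc9, with only the DESeq2 fits below 0.05.

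Paralog ratios within a library do not depend on its scaling. The Kcnj2 to Kcnj12 ratio was 1.69, 1.88 and 1.58 in KOb/c and 1.17, 1.41 and 1.53 in WT, a log2 difference of 0.33 without overlap. The Kcnj11 to Kcnj8 ratio was 3.39, 2.79 and 2.84 in KOb/c and 2.55, 2.71 and 2.07 in WT, a log2 difference of 0.30, also without overlap. For both, the exact two-sided permutation test gave p = 0.1, or 0.2 adjusted over the 4 ratios. The other two overlapped between groups. The Kcnj3 to Kcnj5 ratio was 0.461, 0.548 and 0.552 against 0.332, 0.40 and 0.539 (log2 difference 0.32), and the Abcc9 to Abcc8 ratio was 7.13, 5.37 and 4.20 against 4.07, 4.32 and 3.74 (log2 difference 0.43), each with an exact permutation p of 0.2 before and after adjustment. With transcript length and GC content corrected, the Kcnj2 to Kcnj12 difference was 0.14, and without WT replicate 1 it was 0.22. Single libraries also weighed on the others. The Abcc9 to Abcc8 difference was 0.24 without KOb/c replicate 1 and the Kcnj3 to Kcnj5 difference 0.16 without WT replicate 1. The Kcnj11 to Kcnj8 difference was 0.19 without WT replicate 3. Without KOb/c replicate 2 the difference was 0.26 for Kcnj2 to Kcnj12 and 0.35 for Kcnj11 to Kcnj8. It was then 0.28 for Kcnj3 to Kcnj5 and 0.44 for Abcc9 to Abcc8.

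**Figure D3:**
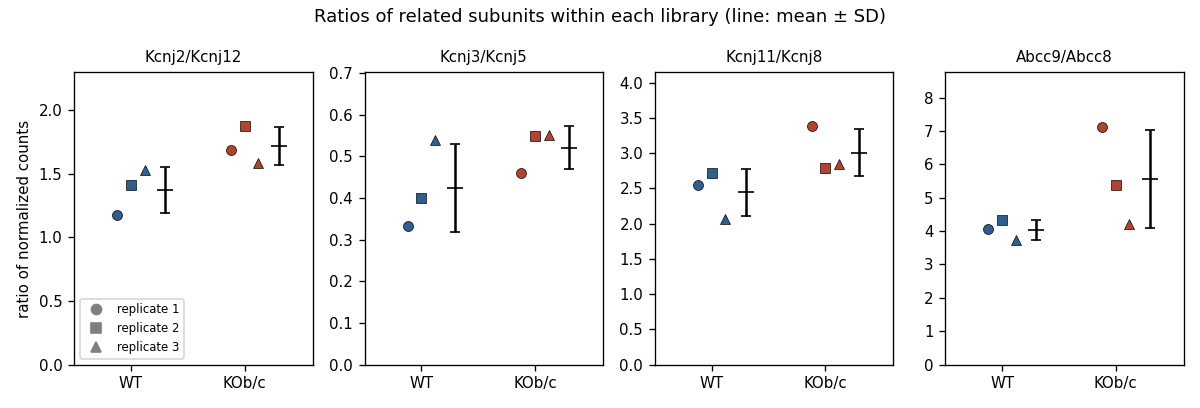
Ratio of normalized read counts of 4 paralog pairs in each library, for WT and KOb/c hearts, with the mean ± SD (n = 3 per group). The KOb/c values lie above the WT values for Kcnj2 to Kcnj12 and Kcnj11 to Kcnj8, and the groups overlap for Kcnj3 to Kcnj5 and Abcc9 to Abcc8.

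Levels of different genes were compared per kb of merged exons. In WT hearts Kcnj11 was the most abundant at 2134 ± 263 normalized counts per kb, above Abcc9 at 1312 ± 108, Kcnj5 at 1273 ± 74.0 and Kcnj8 at 1263 ± 65.3. These last 3 did not differ beyond their spread. A lower tier held Kcnj3 at 483 ± 112, Kcnj12 at 420 ± 20.3, Abcc8 at 336 ± 24.8 and Kcnj2 at 290 ± 29.8 per kb, in which Kcnj3 and Kcnj12 overlapped. In KOb/c hearts Kcnj11 stood at 2401 ± 97.3 and Abcc9 at 1971 ± 397 per kb, with overlapping libraries. Kcnj2 at 427 ± 46.3 and Abcc8 at 371 ± 27.9 per kb traded places in the order of KOb/c means, also with overlap. The Abcc8 rank depends on the gene model, since per kb of its longest transcript it had 558 ± 41.1 in WT and ranked above Kcnj3.

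**Figure D4:**
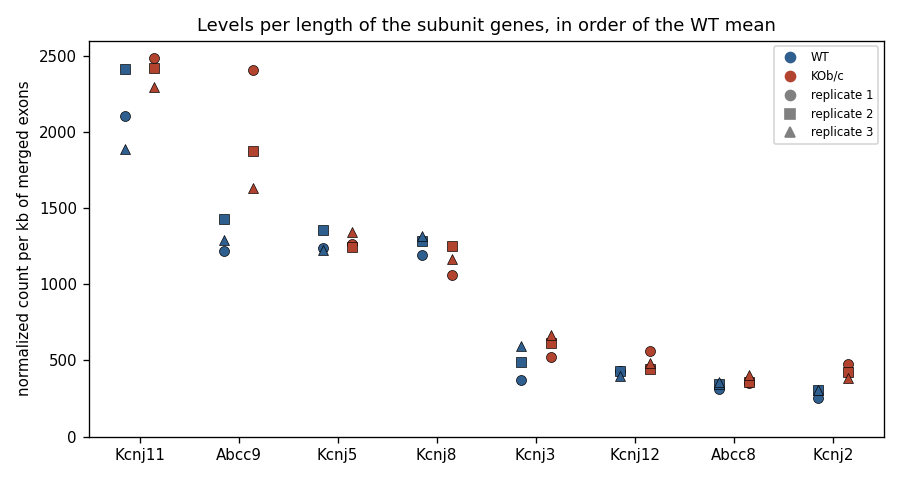
Normalized read count per kb of merged exons for the 8 subunit genes, one point per library, in WT and KOb/c hearts. Kcnj11 has the highest mean in both groups, and Kcnj3, Kcnj12, Abcc8 and Kcnj2 form the lower tier.

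Per kb, Kcnj11 made up 63.9, 65.3 and 58.9% of the Kir6 pair in WT and 70.1, 65.9 and 66.3% in KOb/c. Abcc9 made up 79.7, 80.7 and 78.3% of the sulfonylurea receptor pair in WT and 87.3, 83.8 and 80.2% in KOb/c. Kcnj2 supplied 37.2, 41.7 and 43.6% of the Kir2 pair in WT and 46.0, 48.7 and 44.5% in KOb/c. A functional KATP channel needs both rings, and the summed Kir6 level over the summed receptor level per kb was 2.16, 2.09 and 1.94 in WT and 1.29, 1.64 and 1.70 in KOb/c, without overlap. This last ratio was chosen after its values were seen and was not tested. Both the Abcc9 share and this ratio depend on the gene model. In WT Abcc8 had 336 ± 24.8 per kb of merged exons, used here, but 558 ± 41.1 per kb of its longest transcript.

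The promoters of the members with the largest differences, and of Kcnj8, the neighbour of Abcc9, are shown beside each other. RefSeq promoter windows (GRCm38.p6), from 250 bases before to 50 after the start, matched 6 of the 8 members, all but Kcnj11 and Abcc8. Capitals mark matches to CCAAT or GGGCGG on either strand, so that ATTGG and CCGCCC are their reverse complements.
Kcnj2 (chr11:111065914-111066213, plus strand): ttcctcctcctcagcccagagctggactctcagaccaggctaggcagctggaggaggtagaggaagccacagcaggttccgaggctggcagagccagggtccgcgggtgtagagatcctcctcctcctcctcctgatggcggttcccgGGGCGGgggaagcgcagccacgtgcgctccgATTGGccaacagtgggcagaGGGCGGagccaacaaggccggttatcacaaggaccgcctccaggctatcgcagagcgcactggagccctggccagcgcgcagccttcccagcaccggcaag
Abcc9 (chr6:142702225-142702524, minus strand): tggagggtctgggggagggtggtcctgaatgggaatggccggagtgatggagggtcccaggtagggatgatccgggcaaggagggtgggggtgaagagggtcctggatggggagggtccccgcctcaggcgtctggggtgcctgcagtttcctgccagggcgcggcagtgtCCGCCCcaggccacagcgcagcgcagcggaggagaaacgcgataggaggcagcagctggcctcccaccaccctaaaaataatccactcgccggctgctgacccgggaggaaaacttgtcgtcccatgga
Kcnj8 (chr6:142571565-142571864, minus strand): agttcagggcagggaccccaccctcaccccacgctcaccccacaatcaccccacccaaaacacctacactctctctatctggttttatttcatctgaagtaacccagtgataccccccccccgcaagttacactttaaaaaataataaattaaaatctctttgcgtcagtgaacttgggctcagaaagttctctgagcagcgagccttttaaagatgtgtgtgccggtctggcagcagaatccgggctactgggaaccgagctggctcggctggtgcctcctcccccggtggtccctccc
The Kcnj2 window was 66.7% G and C with 18 CpG sites, and the Abcc9 window 65.7% with 16, both above the upper quartile of GC content over 32851 promoters of that length (61.7%, median 52.7%). Their CpG counts lay between the median of 7 and the upper quartile of 20. The Kcnj8 window was nearer the median, at 53.3% with 9 CpG sites. GGGCGG, the GC box, occurred 2 times in the Kcnj2 window and 1 time in that of Abcc9, against 35.7% of all promoters with a match, and CCAAT 1 time in that of Kcnj2, against 37.4%. GGGCGG also occurred 2 times in the Kcnj5 window and 1 time in that of Kcnj3, so it did not set apart the members with the largest differences. TATAAA (13.6% of promoters), AGATAA (11.2%) and TGTTTAC (3.65%), searched on both strands, had no match in these 3 windows.

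Genes that act on these channels were taken from lists of 69 genes, of which 62 were tested. By limma, 0 of the 62 passed the adjusted threshold. At an unadjusted p below 0.05, 12 were higher and 6 lower in KOb/c, against 13% and 10.5% of all genes tested, so the lower count was near the share over all genes. The 3 KOb/c libraries lay above all WT libraries for 14 genes and below for 7, against 15.6% and 14.6% of all genes. The median log2 fold change of the 62 was 0.04, and 0.05 without KOb/c replicate 2. DESeq2 called 8 higher and 1 lower, where it called 8.22% and 5.03% of the genes to which it gave an adjusted p. Some of the 62, among them Kcnj10 and Lin7a, had no DESeq2 adjusted p.

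Of the other Kcnj genes, Kcnj10, Kcnj14 and Kcnj15 were tested and were scarce. Over the 6 libraries Kcnj10 had normalized counts of 12.4 to 26.0, Kcnj14 of 21.8 to 47.6 and Kcnj15 of 118 to 228, all with overlapping groups. Kcnj1, Kcnj4, Kcnj6, Kcnj9, Kcnj13 and Kcnj16 were not among the tested genes.

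Among 16 receptors, G protein subunits and RGS genes upstream of Kir3, 3 were higher and 2 lower at an unadjusted p below 0.05, near the shares of 13% and 10.5% over all genes. The KOb/c libraries lay above all WT libraries for 4 and below for 4, against 15.6% and 14.6% of all genes. The median log2 difference of the 16 genes was 0.03. Chrm2, the M2 muscarinic receptor that opens Kir3 channels, had counts of 8554, 6498 and 7276 in KOb/c and 5387, 5734 and 6096 in WT. It separated the groups with a log2 difference of 0.37 (SE 0.10, limma adjusted p = 0.0947, DESeq2 adjusted p = 0.00899). The Chrm2 difference was 0.26 after the length and GC correction (limma adjusted p = 0.283). It was 0.26 without KOb/c replicate 1 and 0.46 without KOb/c replicate 2. Gnao1, a G alpha subunit of the Go class, differed by 0.30 (limma adjusted p = 0.171) and Rgs7bp, which anchors RGS proteins to the membrane, by 0.29 (limma adjusted p = 0.246). Without WT replicate 1 these differences were 0.18 for Gnao1 and 0.15 for Rgs7bp, and after the length and GC correction 0.20 and 0.13. Gnb4, a G beta subunit, lay lower, at 1028, 1204 and 1109 in KOb/c and 1444, 1233 and 1352 in WT (log2 difference -0.27, limma adjusted p = 0.124).

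Every Kir channel needs the membrane lipid PIP2 to open. Of the 5 lipid kinases that supply it, 1 was higher and 0 lower at an unadjusted p below 0.05, against 13% and 10.5% of all genes. The higher gene was Pi4ka, which makes the PIP2 precursor at the plasma membrane. Pi4ka had counts of 3307, 2919 and 3090 in KOb/c and 2492, 2604 and 2350 in WT. Its log2 difference was 0.32 (SE 0.07, limma adjusted p = 0.0815) and 0.15 after the length and GC correction.

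Polyamines cause the inward rectification. Of 10 genes of polyamine synthesis and breakdown, 0 were higher and 3 lower at an unadjusted p below 0.05, against 13% and 10.5% of all genes, with a median log2 difference of -0.15, or -0.0017 after the length and GC correction. Smox, the spermine oxidase, had counts of 1585, 1705 and 1782 in KOb/c and 2153, 1969 and 2052 in WT (log2 difference -0.28, SE 0.07, limma adjusted p = 0.0851). Oaz1, the antizyme that restrains ornithine decarboxylase, differed by -0.24 (limma adjusted p = 0.171), or by -0.15 without WT replicate 1.

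Of 15 scaffold and targeting genes, 7 were higher and 1 lower at an unadjusted p below 0.05, against 13% and 10.5% of all genes, and 0 passed the adjusted threshold. The KOb/c libraries all lay above WT for 8 and below for 1, against 15.6% and 14.6% of all genes, and the median log2 difference was 0.13. Dmd, dystrophin, had counts of 5998, 4325 and 4116 in KOb/c and 3042, 3450 and 3349 in WT (log2 difference 0.53, SE 0.13, limma adjusted p = 0.0844). Ank2, ankyrin-B, which holds Kir6.2 at the membrane, had 7422, 5670 and 5572 in KOb/c and 4112, 4404 and 4548 in WT (log2 difference 0.50, SE 0.11, limma adjusted p = 0.0815). Apba1, a PDZ scaffold of Kir2 complexes, differed by 0.31 (limma adjusted p = 0.18) and Trak2, a kinesin adaptor, by 0.30 (limma adjusted p = 0.124). The length and GC correction brought Dmd to 0.28, Ank2 to 0.22, Apba1 to 0.16 and Trak2 to 0.14.

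None of the 8 metabolic enzymes tied to KATP channels, among them creatine kinases and glycolytic enzymes, had an unadjusted p below 0.05. Over all genes 13% were higher and 10.5% lower at that level. The median log2 difference of the 8 enzymes was -0.02. Of the tandem-pore potassium channels, which add to the resting conductance, 5 of 6 were tested (all but Kcnk1). At that level 1 was higher and 0 lower, against the same 13% and 10.5% of all genes. The higher gene was Kcnk3, TASK-1, at 15629, 14471 and 13993 in KOb/c and 11408, 12696 and 9379 in WT (log2 difference 0.41, SE 0.11, limma adjusted p = 0.0901).

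**Figure D5:**
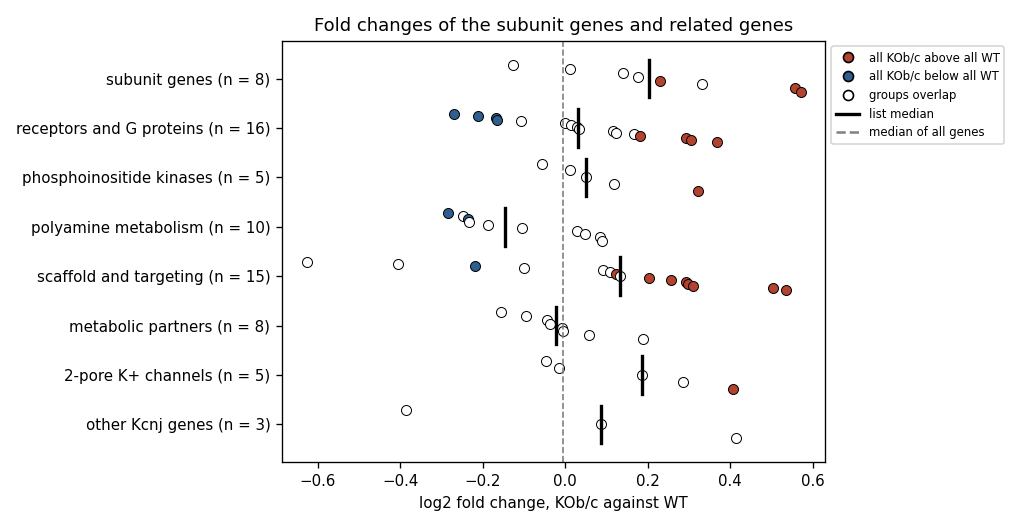
Log2 fold change (KOb/c over WT) of the 8 subunit genes and of the 62 tested related genes by list, with red points where all 3 KOb/c libraries lie above all WT libraries, blue where all lie below and white where they overlap; bars give each list's median and the dashed line the median of all genes tested. The subunit genes have a median of 0.20, the polyamine genes of -0.15 and the scaffold genes of 0.13.

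In bulk hearts fewer cells of a type cannot be told apart from less RNA per cell, so marker levels are given beside these results. Summed over 8 cardiomyocyte markers, normalized counts were 2637220 to 3007850 in KOb/c and 2232299 to 2340100 in WT, without overlap. Myh6, the alpha myosin heavy chain, made up most of that gap, and the sum of the other 7 overlapped between groups, at 1517370 to 1748620 in KOb/c and 1467281 to 1526312 in WT. Of the 8 markers 3 were higher and 0 lower at an unadjusted p below 0.05, against 13% and 10.5% of all genes. By libraries 4 lay wholly above WT and 1, Tnni3 (troponin I), wholly below, against 15.6% and 14.6%. The sum of the 4 tested of 5 nodal markers was 1745 to 2243 in KOb/c and 1368 to 1643 in WT. It remained without overlap when Hcn4, its most abundant member, was left out. Tbx3, with means of 679 in KOb/c and 592 in WT, then made up most of the sum. Hcn4 and Tbx3 lay wholly above WT and 0 nodal markers wholly below, against 15.6% and 14.6% of all genes. Shox2 (log2 difference -0.27) and Tbx18 (0.03) overlapped between groups. At an unadjusted p below 0.05, 2 of the 4 were higher and 0 lower, against 13% and 10.5% of all genes. Endothelial sums (7 genes) did not overlap, at 42272 to 46023 in KOb/c and 39796 to 41499 in WT, but did so without Kdr. No tested marker was at 0 in any library. The part of these shifts in the channel values was not tested.

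The summed levels of the other lists overlapped between groups. Pericyte markers (7 genes), which mark the cells richest in Kcnj8, summed to 36006 to 41912 in KOb/c and 36086 to 36614 in WT. Without Rgs5, the most abundant of them, the sums no longer overlapped, at 11425 to 12394 in KOb/c and 10588 to 11120 in WT. Single markers went both ways. Pdgfrb and Notch3 lay wholly above WT and Higd1b and Ndufa4l2 wholly below, 2 genes each way, against 15.6% and 14.6% of all genes. Smooth muscle sums (5 genes) were 27231 to 31556 and 22891 to 35081, fibroblast sums (5 genes) 38556 to 44169 and 37155 to 42078, and macrophage sums (4 genes) 4503 to 5029 and 4414 to 4871. Atrial markers (7 genes), which mark tissue rich in Kcnj3 and Kcnj5, varied widely within groups, from 18121 to 94552 in KOb/c and from 28196 to 119698 in WT. Replicate 1 had the lowest atrial sum of each group, as it had the lowest Kcnj3 and Abcc8 counts. The lowest Kcnj5 counts were in KOb/c replicate 2 and WT replicate 3. All 7 atrial markers had a log2 fold change below 0, against 0.33 for Kcnj3, but each 95% interval included 0. These signs leaned on KOb/c replicate 1. Without it the value was 0.52 for Nppa, 0.31 for Myl7, 0.23 for Myl4 and 0.15 for Sln. It was then 0.081 for Stard10, 0.0064 for Dkk3 and -1.60 for Bmp10, against 0.43 for Kcnj3. The part of atrial tissue in the channel values was not tested. Skeletal muscle markers (6 of 7 tested, all but Myh4) ran from 132 to 2053 in KOb/c, with the highest value in replicate 2, and from 309 to 672 in WT. The heart label held, with cardiomyocyte markers far above every other list in each library.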

How the data were processed

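Whole-heart total RNA was sequenced as paired reads of 150 bases. Per the labels, the authors trimmed reads with Trimmomatic 0.36, aligned them to GRCm38 with STAR 2.5.2b, counted them per gene with featureCounts of Subread 1.5.2 and normalized with DESeq2. The annotation, strand setting and treatment of multimapping reads are not given in the sources used here. The deposited values are a signal: counts divided by a size factor per library, listed for 16018 genes (0 columns were left unmapped). The size of a single read was inferred per library from the steps between its values, and dividing by it gave whole reads for 100% of values, within 0.01 reads.

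Genes with a mean normalized count of at least 10 (16016) were tested on log2(normalized count + 1) with limma 3.58.1 (trend, two-sided, Benjamini-Hochberg adjustment over all genes, threshold 0.05) in R 4.3.3. Fold changes and their standard errors are on this log2 scale. On the recovered reads, edgeR 4.0.16 (quasi-likelihood) called 0 genes and DESeq2 1.42.0 called 1587. Single values were compared by exact permutation of the 6 libraries. The limma, edgeR and DESeq2 fits were run on simulated counts with 200 changed genes, as a check of the code. This check does not show which tool's calls hold in these data. The length and GC correction was a spline with 5 degrees of freedom on values of 99.8% of genes. Levels per kb used exons merged from GENCODE M21, and promoters came from RefSeq.

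The 8 members and all gene lists were chosen with earlier results of these data known. Genes named were the members, Slc4a4, and from each related list at most 4 whose groups did not overlap, by size of log2 fold change. Gm26794 was added for its overlap with Kcnj3, and the untested genes and Kcnj10, Kcnj14 and Kcnj15 were added after the values were seen. Alternatives tried were other scalings, filters, pseudocounts and tools, the length and GC correction, a replicate block and leaving out each library. The correction or DESeq2 without KOb/c replicate 2, lengths from the longest transcript, and marker sums without their most abundant gene, were added after seeing the data.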

Additional observations from a re-analysis of the deposited data

How the results depend on the processing

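The 8 subunit genes were refitted under 19 other settings each. Kcnj2, Kcnj12, Kcnj3, Kcnj11, Abcc8 and Abcc9 kept a positive and Kcnj8 a negative log2 fold change in all of them, and the 4 paralog ratios kept their direction under 11 settings each. Only Kcnj5, whose log2 fold change was 0.01, changed sign: to -0.062 with libraries rescaled to the same total, -0.043 with quantile normalization, -0.069 with the length and GC correction, -0.043 with that correction and without KOb/c replicate 2, and, with 1 library left out at a time, to a range of -0.022 to 0.0585, below 0 without KOb/c replicate 3 (-0.022), WT replicate 1 (-0.0081) or WT replicate 3 (-0.017). By limma 0 genes passed the adjusted threshold with all libraries (3764 at an unadjusted p below 0.05), between 0 and 3 with 1 library left out, the 3 being without KOb/c replicate 2, and 2 with the length and GC correction and without that library. DESeq2 called 1587 genes (985 higher and 602 lower), 2 members and 9 related genes (8 higher and 1 lower), and without KOb/c replicate 2 it called 1195 genes (791 higher and 404 lower), 2 members and 11 related genes (7 higher and 4 lower). The cause of the gap between the tools was not tested. In that last fit Kcnj2 had a log2 fold change of 0.57 (DESeq2 adjusted p = 0.00269) and Abcc9 of 0.62 (DESeq2 adjusted p = 0.00382). The labels do not say whether replicate numbers pair the samples. Deviations from the group means correlated at 0.227, 0.072 and -0.029 between same-numbered libraries and at -0.183 to 0.155 between the others. With 3 libraries per group these values cannot show whether the samples were paired. With the replicate number as a block, 0 genes, 0 members and 0 related genes passed the adjusted threshold (3924, 5 and 23 at an unadjusted p below 0.05). With 3 libraries per group, the intervals of Kcnj3, Kcnj11 and Abcc8 leave differences of up to 1.62-fold, 1.30-fold and 1.25-fold undetected.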
